A study of Mus musculus with 30 samples.

Results

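The transcripts described here encode the cytokines, receptors and intracellular factors that drive the formation of osteoclasts, the cells that resorb mineralised cartilage and bone. They are 9 genes, Tnfsf11, Tnfrsf11b, Tnfrsf11a, Csf1, Il34, Csf1r, Traf6, Nfatc1 and Mitf, chosen by name from the 43629 genes of a read count table made from mouse fracture callus. All 9 were found in the table by symbol, and all 9 passed the filter on low counts in every fit. RNA was sequenced from 30 calli of male C57BL/6J mice, 20 weeks old at fracture, which underwent an open osteotomy of the right tibia held by an intramedullary nail. The mice were lean, or were obese from feeding on a high-fat diet (diet-induced obese, DIO). Lean calli were taken on d3, d5, d7 and d10 after fracture (12 libraries) and DIO calli on the same days and also on d14 and d21 (18 libraries). Each of the 10 groups held 3 mice, with 1 callus per library. All groups carried the fracture, so no unfractured bone serves as a baseline, and no lean callus later than d10 was used here. The libraries held between 13247122 and 26365620 counted reads.

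RANKL (Tnfsf11) is a TNF family cytokine that stromal cells, osteoblasts, osteocytes, hypertrophic chondrocytes and activated T cells can make. It binds RANK (Tnfrsf11a) on osteoclast precursors, RANK recruits the adaptor TRAF6, and the signal that follows induces NFATc1, the transcription factor that switches on the osteoclast gene programme. Osteoprotegerin (OPG, Tnfrsf11b) is a secreted decoy receptor that captures RANKL, so the balance of RANKL and OPG is commonly used to describe how strongly a bone tissue favours resorption. Colony stimulating factor 1 (Csf1) and interleukin 34 (Il34) are separate ligands of the same receptor tyrosine kinase, CSF1R (Csf1r), which keeps macrophages and osteoclast precursors alive and raises their RANK. MITF is a basic helix-loop-helix leucine zipper factor that acts on osteoclast genes together with PU.1 and NFATc1.

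In the GENCODE M21 annotation of GRCm38, Tnfsf11 spans chr14:78277445-78308043 on the minus strand, Tnfrsf11b chr15:54250619-54278484 on the minus strand and Tnfrsf11a chr1:105780718-105847981 on the plus strand. Csf1 spans chr3:107741048-107760469 and Il34 chr8:110741829-110805924, both on the minus strand, while Traf6 spans chr2:101678429-101701669 and Mitf chr6:97807052-98021349, both on the plus strand. Of the exon bases of Csf1r, 15.1% overlap Hmgxb3 on the opposite strand, and of those of Il34, 4.95% overlap Gm15894 and Gm15895 on the opposite strand. The library kit kept the strand, but the strand setting of the counting is not given in the sources used here, so a share of the Csf1r and Il34 counts may belong to those neighbours. The exons of the other 7 genes overlap no other annotated gene.

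The start regions of 5 of the 9 genes (Tnfsf11, Tnfrsf11a, Csf1, Traf6 and Mitf) were taken from RefSeq (GRCm38.p6). Csf1r and Nfatc1 were left out of this step beforehand. Shown here are the 250 bases before the start of the RANKL ligand, of its receptor and of Csf1. The last 2 were chosen because their levels moved together most among these 5 genes (Pearson r of 0.71 over the 30 libraries). Capitals mark matches, on either strand, to 1 of 6 short motifs. These were the TATA box motif TATAAA, the CCAAT box, the GC box GGGCGG, the AP-1 motif TGANTCA, the RUNX motif AACCACA and the PU.1 motif GAGGAAGT, and no match overlapped another in the regions shown.
Tnfsf11 (chr14:78308044-78308293, minus strand): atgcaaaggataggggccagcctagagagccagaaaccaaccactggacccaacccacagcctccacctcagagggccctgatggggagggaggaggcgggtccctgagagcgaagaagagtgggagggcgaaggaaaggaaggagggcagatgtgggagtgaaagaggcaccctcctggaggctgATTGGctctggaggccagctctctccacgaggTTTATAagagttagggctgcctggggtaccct
Tnfrsf11a (chr1:105780473-105780722, plus strand): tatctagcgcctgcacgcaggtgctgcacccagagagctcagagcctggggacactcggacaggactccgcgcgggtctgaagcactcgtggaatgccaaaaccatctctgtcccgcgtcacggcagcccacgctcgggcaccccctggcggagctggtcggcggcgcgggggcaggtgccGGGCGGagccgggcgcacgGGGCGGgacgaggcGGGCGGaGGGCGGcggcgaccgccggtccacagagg
Csf1 (chr3:107760470-107760719, minus strand): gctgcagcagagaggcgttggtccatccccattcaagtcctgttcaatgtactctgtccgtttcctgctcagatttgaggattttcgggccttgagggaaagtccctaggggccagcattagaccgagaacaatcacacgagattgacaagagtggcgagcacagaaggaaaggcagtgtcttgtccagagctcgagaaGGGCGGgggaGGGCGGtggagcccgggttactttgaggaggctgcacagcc
The Tnfsf11 region held TATAAA on the opposite strand beginning 32 bases before the start, and CCAAT on the opposite strand 64 bases before it. TATAAA was found in 12.4% and CCAAT in 33.8% of the 32851 start regions of this length in the table. The Tnfrsf11a region held GGGCGG at 4 places, between 69 and 29 bases before the start, with a GC content of 73.6% against a median of 52.4% over all start regions. The Csf1 region held GGGCGG at 2 places, 51 and 41 bases before the start, and 32.7% of all start regions held this motif at least once. None of these 3 regions held TGANTCA (6.75% of all regions), AACCACA (4.4%) or GAGGAAGT (2.44%). Such matches describe letters in a window and were not tested as binding sites.

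Levels are given as CPM (counts scaled to a common library size) after scaling by the trimmed mean of M values, for 1 gene across libraries, and as CPM per kilobase of exon where genes are compared with each other. Per kilobase, the CSF1 receptor was the most abundant of the 9 transcripts, with a median level over the 30 libraries of 69.0 CPM per kb. Its ligand Csf1 followed at 26.8 and Nfatc1 at 19.1 CPM per kb. The RANKL side was lower, at 8.60 CPM per kb for Tnfrsf11b and 7.31 for Tnfsf11, while Il34 (4.94), Tnfrsf11a (4.89), Traf6 (3.56) and Mitf (2.87) were lowest. Over all libraries Tnfrsf11b varied most, 7.25-fold from the lowest to the highest library, and Mitf least, 2.48-fold. No library had fewer than 87 reads for any of the 9 genes, so none of the levels rests on a handful of counts.

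**Figure D1:**
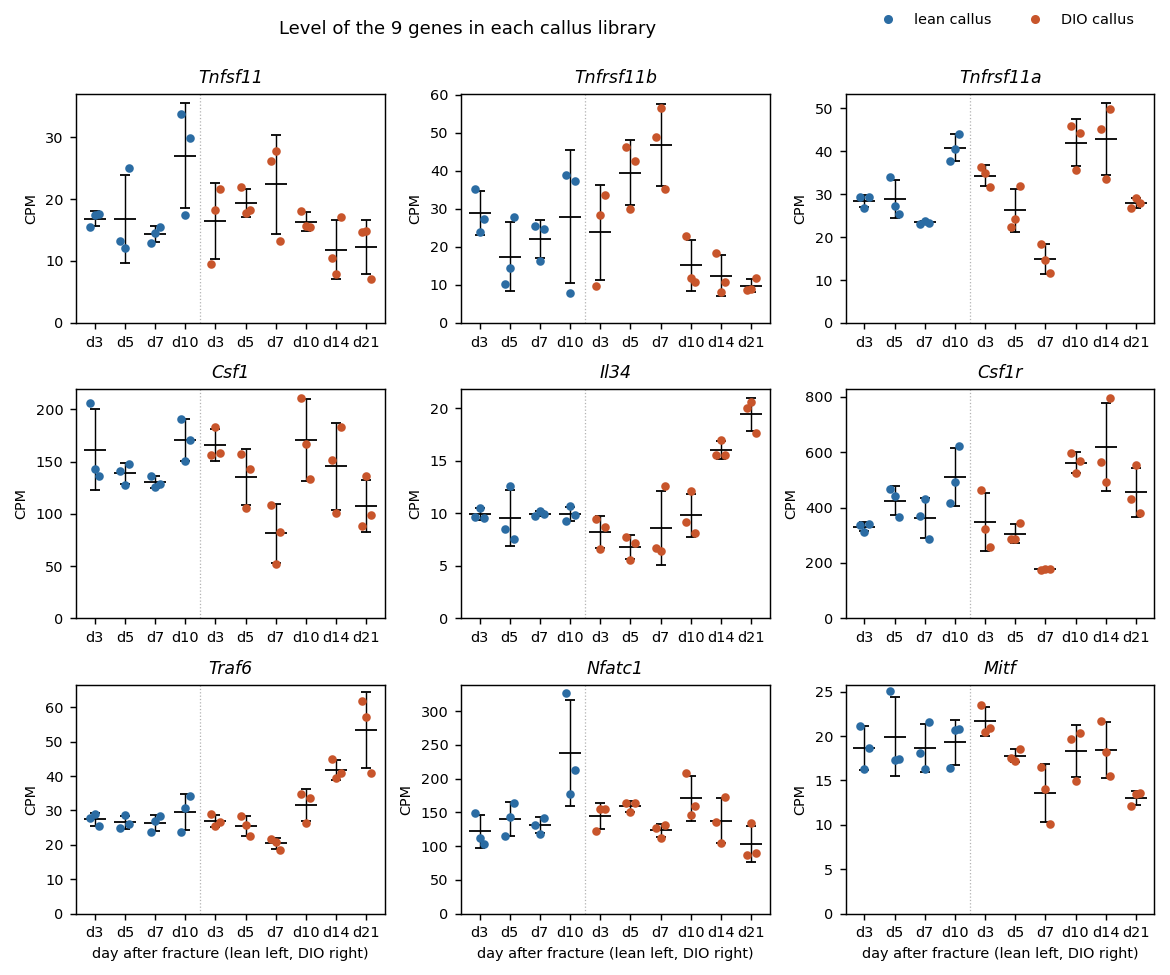
Level of each of the 9 genes in CPM (vertical axis from 0) in every callus library, by day after fracture, with lean calli (blue) left of the dotted line and DIO calli (orange) right of it. Points are libraries, the horizontal mark is the group mean and the bars are the SD of 3 mice. Csf1r, Tnfrsf11a, Csf1 and Traf6 have their lowest group mean in DIO callus on d7, where Tnfrsf11b has its highest.

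In callus from DIO mice on d7, the OPG transcript was higher and the CSF1 receptor transcript lower than in lean callus of the same day. These were the only 2 of the 9 genes that passed edgeR's test in any of the 4 same-day comparisons of diet, which hold the day fixed. The paper reports that soft callus formed and was resorbed earlier in DIO mice. A difference of diet and one of healing stage cannot be told apart on a given day. Of all genes tested on d7, 2.32% were called, 1.4% higher and 0.92% lower in DIO callus. With 1 library left out, the count of all genes called ran from 29 to 936 on d7 (366 with none left out). On d5 it ran from 0 to 935 (170 with none left out). On d3, d5 and d10, edgeR called 0 of the 9 genes, against 0%, 1.08% and 0% of all genes. Unadjusted, Tnfrsf11a on d3, Tnfrsf11b and Csf1r on d5 and Tnfsf11 on d10 had a p under 0.05, and DESeq2 called 0 of the 9 on d3, 2 on d5 (Tnfrsf11b and Csf1r) and 0 on d10. The median log2 difference of the 9 genes on d3 was 0.05, followed by -0.06 (d5), -0.36 (d7) and -0.0037 (d10), against medians of all genes within 0.02 of 0 on each day. On d7 the 3 DIO values lay outside the 3 lean values for 5 of the 9 genes, higher for Tnfrsf11b and lower for Tnfrsf11a, Csf1, Csf1r and Traf6, where 22.1% of all genes tested had groups without overlap. On d10 this held for 0 of the 9 genes, against 14.2% of all genes. P-values throughout rest on 3 mice per group.

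**Figure D2:**
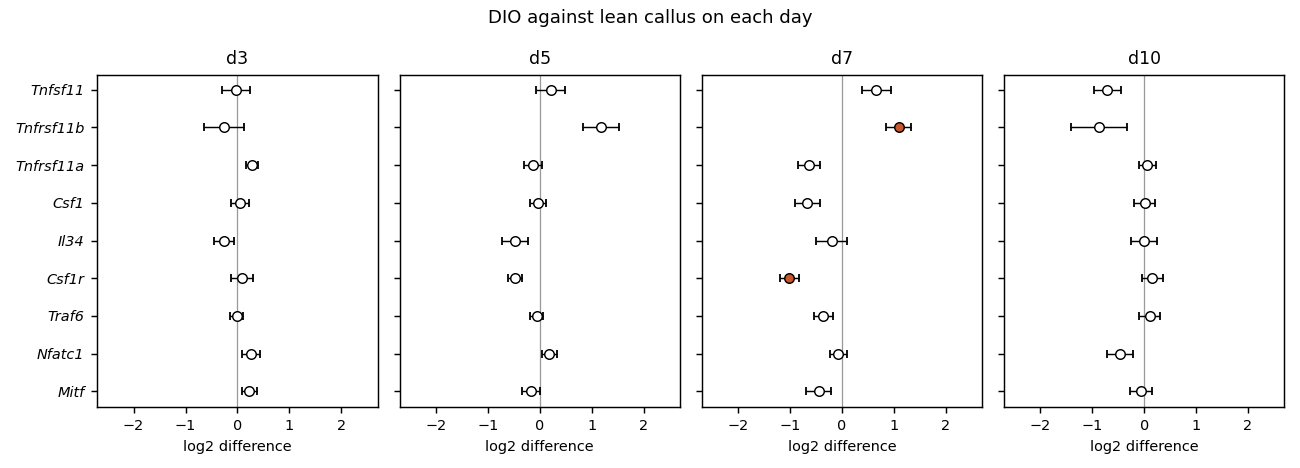
Log2 difference of DIO against lean callus (horizontal axis, 0 marked by the grey line) for the 9 genes on d3, d5, d7 and d10, from edgeR fits of 3 against 3 calli. Bars are the SE and filled points have an adjusted p under 0.05, which holds for Tnfrsf11b and Csf1r on d7 alone.

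Tnfsf11, the RANKL transcript, was at 15.4, 17.4 and 17.7 on d3, 13.2, 12.1 and 24.9 on d5, 12.9, 14.5 and 15.4 on d7, and 33.8, 17.4 and 29.8 on d10 CPM in the 3 lean libraries of each day. In DIO callus it was at 9.55, 18.3 and 21.6 on d3, 21.97, 17.8 and 18.3 on d5, and 26.2, 27.7 and 13.2 on d7 CPM. On the later days of DIO callus it was at 18.1, 15.6 and 15.4 on d10, 10.5, 7.97 and 17.1 on d14, and 14.7, 14.8 and 7.15 on d21 CPM. The highest lean group was d10, where replicates 1 and 3 were above every other library of the series and replicate 2 was within the range of the other days. In DIO callus, replicates 1 and 2 of d7 were the highest, and replicate 3 of that day was below all 3 libraries of DIO d5. The difference between DIO and lean callus was 0.66 ± 0.28 (log2, SE) on d7 (adjusted p = 0.276) and -0.71 ± 0.26 on d10 (adjusted p = 0.686), both short of the threshold. Without replicate 3 of DIO d7, the d7 difference was 0.94 with an adjusted p of 0.0291. The change of the diet difference from d7 to d10 was -1.37 ± 0.44 (adjusted p = 0.0719), and it passed without replicate 2 of lean d10 (0.0296), replicate 3 of DIO d7 (0.0249), replicate 3 of lean d5 (0.0489) or replicate 1 of DIO d3 (0.0495).

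Across days, Tnfsf11 alone of the 9 genes was not called in DIO callus (adjusted p = 0.142, and 0.0457 without replicate 3 of DIO d7). In lean callus it was 0.72 ± 0.29 (log2, SE) on d10 against d3 (adjusted p = 0.0768). Without replicate 2 of lean d10 this was 0.93 with an adjusted p of 0.0293, and without replicate 3 of lean d5, which enters only through the shared spread, the adjusted p was 0.0361. For any difference among the 4 lean days the adjusted p was 0.0972, with 0.0445 and 0.023 without those same libraries. In the order of group means, from DIO d14 at 11.8 ± 4.73 CPM (SD, n = 3) to lean d10 at 27.002 ± 8.52 CPM, every pair of neighbours overlapped except lean d3 and DIO d5.

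Tnfrsf11b, the transcript of the decoy receptor OPG, was at 35.1, 23.8 and 27.5 on d3, 10.1, 14.5 and 27.7 on d5, 25.4, 16.3 and 24.7 on d7, and 38.9, 7.78 and 37.3 on d10 CPM in lean callus. DIO calli had 9.73, 28.3 and 33.5 on d3, 46.1, 29.99 and 42.5 on d5, and 48.99, 56.4 and 35.2 on d7 CPM. From d10 on it was at 22.8, 11.8 and 10.8 on d10, 18.5, 8.08 and 10.8 on d14, and 8.75, 8.87 and 11.9 on d21 CPM. DIO callus of d5 and d7 was above all 3 lean libraries of the same day, whereas on d10 the DIO values were below 2 of the 3 lean libraries and above replicate 2. That library, replicate 2 of lean d10, had the lowest Tnfrsf11b level of the whole series. On d7, Tnfrsf11b was 1.09 ± 0.24 (log2, SE) higher in DIO than in lean callus (edgeR adjusted p = 0.0487). This call was near the threshold. It was lost with the replicate number as a block (adjusted p = 0.0742) and with all 30 libraries in 1 fit (0.196). It was also lost without replicate 1 (0.107), 2 (0.217) or 3 (0.104) of lean d7 or replicate 1 or 2 (each 0.119) of DIO d7. The replicate number is the order of the samples within a group, and no label pairs mice by it. On d5 the difference was 1.18 ± 0.35 with an adjusted p of 0.136, and 0.0158 without replicate 3 of lean d5.

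Within DIO callus, Tnfrsf11b fell from d7 to d10 by 1.63 on the log2 scale (SE 0.40, adjusted p = 0.0102). Without replicate 2 or 3 of DIO d10 the adjusted p was 0.0551 or 0.053. It stayed at 8.08 to 22.8 CPM on d10, d14 and d21, below every DIO library of d5 and d7. In lean callus no difference among days was called (adjusted p = 0.622). The change of the diet difference from d7 to d10 was -1.97 ± 0.68 (log2, SE, adjusted p = 0.0924), and -2.41 with an adjusted p of 0.0164 without replicate 2 of lean d10. For any change of the diet difference over the 4 days the adjusted p was 0.17, and 0.0355 without that library. The group means ran from 9.83 ± 1.77 CPM (SD, n = 3) in DIO d21 to 46.9 ± 10.8 CPM in DIO d7, and every pair of neighbours in that order overlapped.

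Other markers differed beside these values, and their part in them was not tested. The summed level of 12 chondrocyte marker genes was 5161 to 18467 CPM in lean d7 and 19284 to 42441 CPM in DIO d7, against 16317 to 81730 CPM in lean d10 and 3280.5 to 8798 CPM in DIO d10. In lean d10, replicate 1 alone was at 81730 CPM. Replicates 2 and 3 were at 18308 and 16317 CPM. That was just below replicate 3 of lean d7 (18467 CPM) and above its replicates 1 and 2 (6851 and 5161 CPM). On d7, 3 of the 12 were called higher and 0 lower in DIO callus, against 1.4% of all genes higher and 0.92% lower. Of 12 osteoblast and osteocyte genes 3 were called lower and 0 higher on d7 (median log2 difference -0.59), with a summed level of 35742 to 44657 CPM in lean and 24307 to 40994 CPM in DIO callus. Of the 6 adipocyte genes that passed the filter 3 were called lower and 0 higher. The summed level of 10 skeletal muscle genes was 1313.5 to 18268 CPM in lean d10 and 23991 to 32121 CPM in DIO d10. On d7 it was 7130 to 21425 CPM in lean and 8516 to 22479 CPM in DIO callus. On d10, 0 of these 10 genes were called, on a day when no gene at all was called. None of the marker lists used here had a gene at 0 in all libraries of a group. In bulk tissue, fewer cells of a type and less RNA per cell cannot be told apart.

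The ratio of Tnfsf11 to Tnfrsf11b counts ranged from 0.375 to 2.24 over the 30 libraries, with a median of 0.762. RANKL reads outnumbered OPG reads in 7 of 30 libraries, or in 15 of 30 when each was divided by its exon length. In lean callus the ratio on d3 was 0.439, 0.73 and 0.643, followed by 1.30, 0.831 and 0.899 (d5), 0.508, 0.89 and 0.625 (d7) and 0.869, 2.24 and 0.799 (d10). In DIO callus it was 0.981, 0.646 and 0.643 on d3, 0.476, 0.594 and 0.43 on d5 and 0.535, 0.492 and 0.375 on d7. It was then 0.795, 1.32 and 1.43 on d10, 0.565, 0.985 and 1.59 on d14 and 1.68, 1.67 and 0.603 on d21. The ratio was lowest in DIO callus of d5 and d7, where all 6 libraries were under 0.6, and it was above 0.79 in every DIO library of d10. The highest ratio of the series was in replicate 2 of lean d10, the library with the lowest OPG level.

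On d5 the ratio was 0.5001 times as high in DIO as in lean callus (log2 difference -0.9996), and the 3 DIO values lay below the 3 lean values. The two-sided exact permutation test gave p = 0.1, which is the smallest that 3 against 3 mice allow, so no same-day comparison could pass the threshold. The log2 difference was 0.33 on d3 (exact p = 0.5), -0.51 on d7 (exact p = 0.2) and -0.019 on d10 (exact p = 0.9). Over d3 to d10 together, permuting diet within each day, it was -0.30 (exact p = 0.153). Among the DIO days from d3 to d10 the ratio differed with an exact permutation p of 0.0114, or 0.114 after Benjamini-Hochberg adjustment over the 10 tests made on the ratio. Among the lean days the exact permutation p was 0.142. The ratio on d10 against d3 had a log2 difference of 0.97 in lean callus (exact p = 0.1) and 0.62 in DIO callus (exact p = 0.2), and d21 against d10 in DIO callus 0.06 (exact p = 1). None of the 10 passed the adjusted threshold. The tests of d10 against d3 and of d21 against d10 were also of 3 against 3 mice, so they could not pass it. All tests of 3 against 3 mice entered the adjustment. Without replicate 2 of lean d10, the log2 difference on d10 was 0.46 in place of -0.019, and lean d10 against d3 was 0.50.

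**Figure D3:**
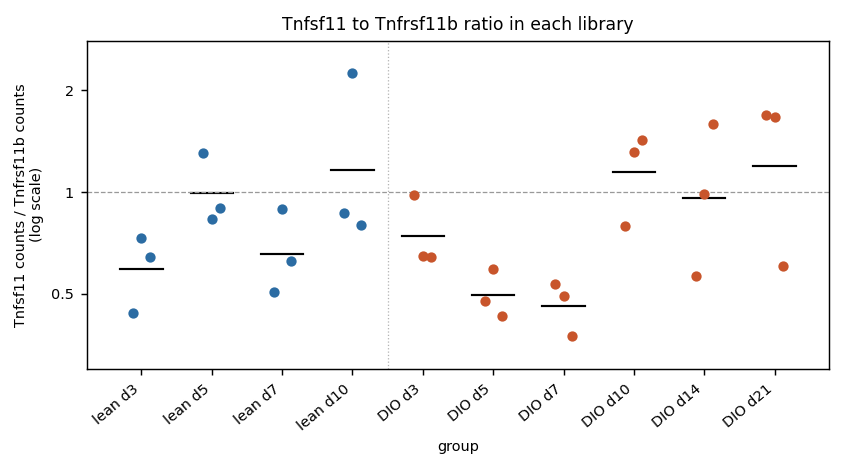
Ratio of Tnfsf11 to Tnfrsf11b counts (vertical axis, log scale) in each library, by group, with lean calli in blue and DIO calli in orange. Points are libraries, the black line is the geometric mean of 3 mice and the dashed line marks a ratio of 1. All 6 libraries of DIO d5 and d7 lie under 0.6, and replicate 2 of lean d10 stands highest at 2.24.

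Tnfrsf11a encodes RANK, the signalling receptor on osteoclast precursors. In lean callus it was at 29.3, 26.9 and 29.3 on d3, 33.9, 27.4 and 25.4 on d5, 23.1, 23.9 and 23.3 on d7, and 37.8, 40.5 and 44.1 on d10 CPM. The DIO libraries were at 36.3, 35.03 and 31.7 on d3, 22.5, 24.3 and 32.01 on d5, and 18.5, 14.7 and 11.6 on d7 CPM. Later it was at 45.96, 35.8 and 44.3 on d10, 45.2, 33.5 and 49.9 on d14, and 26.9, 29.2 and 28.04 on d21 CPM. All 3 DIO libraries of d7 were below every other library of the series, and on d10 both diets had risen to a similar range. The lean rise was 0.81 ± 0.14 (log2, SE) from d7 to d10 (adjusted p = 0.0214) and 0.55 ± 0.14 from d3 to d10 (adjusted p = 0.0115). In DIO callus the rise from d7 to d10 was 1.49 ± 0.19 (adjusted p = 6.8e-05), and it remained called under every alternative run. The d7 to d10 call in lean callus was lost without replicate 1 (0.0631), 2 (0.0839) or 3 (0.0833) of lean d7, and the d3 to d10 call without replicate 2 of lean d3 (0.0511).

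The difference between the diets on d7 was -0.64 ± 0.21 (log2, SE) for Tnfrsf11a, with no overlap between the groups, but its adjusted p was 0.166. With all 30 libraries in 1 fit it was 0.0302. The change of the diet difference from d7 to d10 was 0.70 ± 0.23 (adjusted p = 0.0789, and 0.037 without replicate 1 of DIO d7). On d21 Tnfrsf11a had fallen again in DIO callus, by 0.61 (log2, SE 0.19) from d14 (adjusted p = 0.0289) and by 0.59 from d10 (adjusted p = 0.0175). The first of these was lost without replicate 1 (0.0852) or 3 (0.128) of DIO d14 or replicate 1 (0.0994) or 3 (0.0624) of DIO d21, and the second without replicate 1 (0.0595) or 3 (0.0551) of DIO d10. In the order of group means, from 14.9 ± 3.45 CPM (SD, n = 3) in DIO d7 to 42.9 ± 8.49 CPM in DIO d14, DIO d7 was separate from its neighbour lean d7, and DIO d3 from lean d10, while other neighbours overlapped.

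Csf1, the main ligand of the CSF1 receptor, was at 206, 143 and 136 on d3, 141, 128 and 148 on d5, 137, 125 and 128 on d7, and 191, 150.4 and 171 on d10 CPM in lean callus. DIO callus had 157, 183 and 158 on d3, 157, 106 and 143 on d5, and 109, 52.1 and 82.7 on d7 CPM. After that it was at 211, 167 and 133 on d10, 152, 100.4 and 183 on d14, and 88.002, 136 and 98.4 on d21 CPM. DIO d7 was the lowest group, and its 3 libraries lay below the 3 of lean d7. The difference on d7 was -0.66 ± 0.24 (log2, SE) with an adjusted p of 0.203, short of the threshold. From d7 to d10, Csf1 rose in DIO callus by 1.07 ± 0.27 (adjusted p = 0.0121), a call lost without replicate 2 of DIO d7 (0.0612) or replicate 1 of DIO d10 (0.0616). From d10 to d21 it fell by 0.67 (SE 0.26, adjusted p = 0.0495), at the edge of the threshold. That call was lost with relative log expression scaling (0.0519), with the replicate block (0.066), and without replicate 1 of DIO d5 (0.0539), 3 of DIO d7 (0.0553), 1 or 2 of DIO d10 (0.193 and 0.0916) or 1 or 3 of DIO d21 (0.142 and 0.112).

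Il34, the second ligand of the same receptor, was at 9.61, 10.5 and 9.55 on d3, 8.53, 12.6 and 7.54 on d5, 9.73, 10.2 and 9.90 on d7, and 9.27, 10.7 and 9.85 on d10 CPM in lean callus. The early DIO values were 9.43, 6.56 and 8.66 on d3, 7.72, 5.56 and 7.16 on d5, and 6.74, 6.40 and 12.6 on d7 CPM. On the later days it was at 9.21, 12.1 and 8.12 on d10, 15.6, 16.99 and 15.5 on d14, and 20.04, 20.6 and 17.6 on d21 CPM. Lean callus was nearly flat over time, while DIO callus of d14 and d21 was above all 24 libraries of d3 to d10. From d10 to d21 Il34 rose by 0.98 ± 0.25 (log2, SE, adjusted p = 0.00421), a call that held under every alternative run. Counts of Csf1 exceeded those of Il34 in 30 of 30 libraries, with a ratio of 4.39 to 27.95 and a median of 14.2, or of 1.63 to 10.4 with a median of 5.25 when each was divided by its exon length. The ratio of the counts of the ligands was 4.39 to 6.60 in DIO d21, below its range of 13.8 to 22.9 in DIO d10. Markers of several other cell types moved the same way: the summed level of 12 B and T lymphocyte genes was 85.7 to 142 CPM in DIO d10, 252 to 439.6 CPM in DIO d14 and 554 to 736 CPM in DIO d21, and that of 8 erythroid genes 2012 to 5069.6 CPM in DIO d10 and 27487 to 38548 CPM in DIO d21. The sum of 8 adipocyte genes was 418 to 654 CPM in DIO d10, 841 to 1142 CPM in DIO d14 and 1178 to 1245 CPM in DIO d21. Across the 30 libraries Il34 had a Pearson r of 0.88 with the lymphocyte sum, 0.84 with the erythroid sum and 0.81 with the adipocyte sum, which describes libraries that share day and diet. The part of these cells in the Il34 level was not tested.

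Csf1r, the CSF1 receptor that marks the monocyte, macrophage and osteoclast lineage, was at 338, 311 and 342 on d3, 467, 442 and 367 on d5, 371, 431 and 285 on d7, and 416, 494 and 621 on d10 CPM in lean callus. DIO libraries had 463, 324 and 259 on d3, 285, 285 and 345 on d5, and 176, 178 and 178 on d7 CPM. From d10 it was at 597, 524 and 567 on d10, 566, 493 and 796 on d14, and 431, 553 and 381 on d21 CPM. The 3 DIO libraries of d7 were almost equal and were the lowest of the series, below the 3 of lean d7 by more than 100 CPM. On d10 the DIO libraries were within the range of the lean ones. On d7 Csf1r was -1.02 ± 0.19 (log2, SE) in DIO against lean callus, lower by edgeR (adjusted p = 0.0273). Without replicate 1 (0.101) or 2 (0.157) of lean d7 or replicate 1 (0.0964) or 2 (0.0639) of DIO d7 the call was lost. On d5 the difference was -0.48 ± 0.14 with an adjusted p of 0.137, and 0.0488 without replicate 3 of lean d5.

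By edgeR, Csf1r alone of the 9 genes had a diet difference that changed with the day, and DESeq2 called 3 of the 9. In the test for any such change over d3, d5, d7 and d10 its adjusted p was 0.0435, where 1.65% of all genes were called. Its diet difference was 1.18 ± 0.26 (log2, SE) higher on d10 than on d7 (adjusted p = 0.0143), where 5.07% of all genes were called. The call on d10 against d7 was lost without replicate 2 of lean d7 (0.0556) or replicate 1 of lean d10 (0.0535). The call over the 4 days was lost with the replicate block (0.0667), with all 30 libraries in 1 fit (0.0582) and when any 1 library was left out, other than replicate 3 of lean d5, lean d7 or DIO d3, replicates 2 and 3 of lean d10 and replicate 1 of DIO d3. Its adjusted p over those losses ran from 0.0536 without replicate 3 of DIO d5 to 0.123 without replicate 2 of lean d7.

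Within DIO callus, Csf1r rose by 1.67 ± 0.22 (log2, SE) from d7 to d10 (adjusted p = 7.8e-05), and this held under every alternative run. It was also higher on d10 than on d3, by 0.69 ± 0.21 in DIO callus (adjusted p = 0.0273) and by 0.66 ± 0.19 in lean callus (adjusted p = 0.0222). The DIO call was lost without replicate 2 (0.098) or 3 (0.127) of DIO d3 or replicate 1 (0.0647), 2 (0.0525) or 3 (0.0738) of DIO d10. The lean call was lost without replicate 1 (0.0568) or 2 (0.0823) of lean d3 or replicate 3 of lean d10 (0.0809). Group means ran from 177 ± 1.48 CPM (SD, n = 3) in DIO d7 to 619 ± 158 CPM in DIO d14. DIO d7 was separate from its neighbour DIO d5, and all other neighbours in the order overlapped.

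On d7 the summed markers of the lineages that carry Csf1r and Tnfrsf11a were lower in all 3 DIO libraries than in the 3 lean ones. The summed level of 15 monocyte and macrophage genes was 3464 to 4894 CPM in lean d7 and 2399 to 2867 CPM in DIO d7. On d7, 2 of 15 were called lower and 0 higher, against 0.92% of all genes lower and 1.4% higher. In lean callus that sum was 5208 to 6262 CPM on d3 and 1926 to 2980.3 CPM on d10, while Csf1r and Tnfrsf11a rose. Of the 15 genes, 10 were called lower and 1 higher, against 14.1% of all genes lower and 15.2% higher. In DIO callus the sum was 2706 to 2905 CPM on d10, with 1 of 15 called higher than on d7 and 0 lower, against 6.01% and 7.01% of all genes. Over the 30 libraries the monocyte and macrophage sum had an r of 0.098 with Csf1r and -0.071 with Tnfrsf11a, and the osteoclast sum of 0.71 and 0.53. Cd68, a gene of the monocyte and macrophage list, had an r of 0.90 with Csf1r, so the sum does not describe each of its genes. The sum of 15 osteoclast genes was 5261 to 6669 CPM in lean d7 and 2139 to 3044 CPM in DIO d7, with 8 of the 14 that passed the filter called lower and 0 higher. On d10 the osteoclast sum was 14561 to 18140 CPM in lean and 15456 to 19769 CPM in DIO callus, and 0 of 15 were called. The part of cell numbers in the Csf1r and Tnfrsf11a levels was not tested. Over the 30 libraries Csf1r and Tnfrsf11a had a Pearson r of 0.86, and Csf1r and Tnfrsf11b of -0.68.

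Traf6, the adaptor that links RANK to NF-κB and MAP kinases, was at 27.9, 29.1 and 25.4 on d3, 24.9, 28.6 and 26.1 on d5, 23.7, 26.98 and 28.4 on d7, and 23.7, 30.9 and 34.2 on d10 CPM in lean callus. Values in DIO callus were 28.9, 25.5 and 26.6 on d3, 28.3, 25.7 and 22.4 on d5, and 21.7, 20.96 and 18.6 on d7 CPM. Thereafter it was at 34.8, 26.4 and 33.6 on d10, 45.02, 39.4 and 40.8 on d14, and 61.9, 57.2 and 41.05 on d21 CPM. The 6 DIO libraries of d14 and d21 were above every library of the earlier days, and the 3 of DIO d7 were the lowest. Traf6 rose by 0.63 ± 0.16 (log2, SE) from d7 to d10 (adjusted p = 0.0142) and by 0.75 ± 0.16 from d10 to d21 (adjusted p = 0.00129) in DIO callus. The first call was lost without replicate 1 (0.0595) or 3 (0.0537) of DIO d10, and the second held under every alternative run. Traf6 is also used by Toll-like and interleukin 1 receptors in many cell types, and its r was 0.84 with the adipocyte sum, 0.80 with the lymphocyte sum and 0.66 with the erythroid sum given above. The part of these cells in the Traf6 level was not tested. In lean callus no difference among days was called (adjusted p = 0.708).

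Nfatc1, the transcription factor induced by RANK signalling, was at 149.6, 112 and 104 on d3, 114, 144 and 164 on d5, 131, 118 and 142 on d7, and 327, 177 and 212 on d10 CPM in lean callus. In DIO callus it was at 122, 156 and 155 on d3, 164, 150.0 and 163 on d5, and 126, 113 and 131 on d7 CPM. Afterwards it was at 209, 145 and 159 on d10, 136, 105 and 173 on d14, and 86.2, 134 and 90.1 on d21 CPM. Lean d10 was the highest group, led by replicate 1, and all 3 of its libraries were above the lean libraries of d3, d5 and d7. In lean callus Nfatc1 rose by 1.01 ± 0.23 (log2, SE) from d3 to d10 (adjusted p = 0.00746), which held under every alternative run. For any difference among the lean days its adjusted p was 0.0228, and it was lost without replicate 2 of lean d3 (0.0547) or replicate 1 of lean d10 (0.084). In DIO callus the difference of d10 against d3 was not called (adjusted p = 0.396), and the diet difference on d10 was -0.47 ± 0.25 (adjusted p = 0.688). From d10 to d21 it fell in DIO callus by 0.73 (SE 0.20, adjusted p = 0.00696), a call that held under every alternative run. Across the libraries Nfatc1 had an r of 0.82 with the summed level of 12 osteoblast and osteocyte genes, which was 21592 to 32008 CPM in lean d3 and 44522 to 72461 CPM in lean d10. Its r was 0.59 with the chondrocyte sum and 0.30 with the osteoclast sum. The part of these cells in the Nfatc1 level was not tested.

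Mitf, the partner factor of the osteoclast programme that is also made in other cell types, was the steadiest of the 9. It was at 21.1, 16.2 and 18.7 on d3, 25.1, 17.3 and 17.4 on d5, 18.05, 16.3 and 21.6 on d7, and 16.4, 20.7 and 20.8 on d10 CPM in lean callus. DIO callus was at 23.5, 20.5 and 20.95 on d3, 17.5, 17.2 and 18.6 on d5, and 16.6, 14.05 and 10.1 on d7 CPM. It was then at 19.7, 14.9 and 20.3 on d10, 21.7, 18.2 and 15.5 on d14, and 12.2, 13.5 and 13.6 on d21 CPM. DIO d7 and DIO d21 were the low groups, and the 3 libraries of DIO d7 lay below those of DIO d5. Among the DIO days Mitf was called (adjusted p = 0.0165), as was its fall of 0.49 (log2, SE 0.19) from d10 to d21 (adjusted p = 0.0425). The second call was lost without the filter on low counts (0.0744), without replicate 1 of DIO d5 (0.0522), and without replicate 1 (0.112) or 3 (0.14) of DIO d10 or replicate 1 (0.0966), 2 (0.0517) or 3 (0.0544) of DIO d21. No difference among lean days was called (adjusted p = 0.941).

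Over time, 2 of the 9 genes, Tnfrsf11a and Nfatc1, differed among the 4 lean days, where 19% of all genes were called. Of the 9, 3 were higher on lean d10 than on d3 (Tnfrsf11a, Csf1r and Nfatc1) and 0 lower, against 29.3% of all genes called (15.2% higher and 14.1% lower). Among the 6 DIO days 8 of the 9 were called, all but Tnfsf11, against 59.1% of all genes. The Nfatc1 call among DIO days (adjusted p = 0.0413) was lost with the replicate block (0.0687), with all 30 libraries in 1 fit (0.0569), and without replicate 1 or 3 of DIO d5 (0.0651 and 0.0532), 1 or 2 of DIO d7 (0.0576 and 0.0582), 1 or 3 of DIO d10 (0.082 and 0.0585) or 1 or 3 of DIO d21 (0.103 and 0.101). On DIO d10 against d3, 1 of the 9 was higher (Csf1r) and 0 lower, against 21.8% of all genes called (11.1% higher and 10.8% lower). On DIO d21 against d10, 2 of the 9 were higher (Il34 and Traf6) and 4 lower (Tnfrsf11a, Csf1, Nfatc1 and Mitf), against 43.4% of all genes called (21.7% higher and 21.8% lower).

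The steps between successive days were compared after the values had been seen. From d7 to d10 in DIO callus, 5 of the 9 genes were called, against 13% of all genes (6.01% higher and 7.01% lower). The receptors Csf1r and Tnfrsf11a, the ligand Csf1 and the adaptor Traf6 rose, and the decoy Tnfrsf11b fell. In both diets the sample numbers in the titles are all lower for d7 than for d10, and what they stand for is not given. A difference of day and one along that numbering cannot be told apart on this step. In lean callus over the same step 1 of the 9 was called, Tnfrsf11a, which rose, against 2.73% of all genes (1.09% higher), and Nfatc1 had a log2 difference of 0.88 ± 0.23 (SE, adjusted p = 0.0588, or 0.0348 and 0.0476 without replicate 2 or 3 of lean d10). From d14 to d21 in DIO callus 1 was called, Tnfrsf11a, which fell, against 19.6% of all genes (9.03% lower). On the remaining steps edgeR called 0 of the 9: lean d5 against d3 (0.449% of all genes), lean d7 against d5 (0%), DIO d5 against d3 (1.68%), DIO d7 against d5 (0.0177%) and DIO d14 against d10 (0.759%). In these 5 steps the unadjusted p was under 0.05 for 0, 1, 0, 3 and 2 of the 9 genes, and DESeq2 called 0, 0, 0, 2 and 0. The 3 genes on the step from d5 to d7 in DIO callus were Tnfrsf11a (-0.81 ± 0.19, log2, SE), Csf1 (-0.74 ± 0.26) and Csf1r (-0.78 ± 0.21), all lower on d7.

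**Figure D4:**
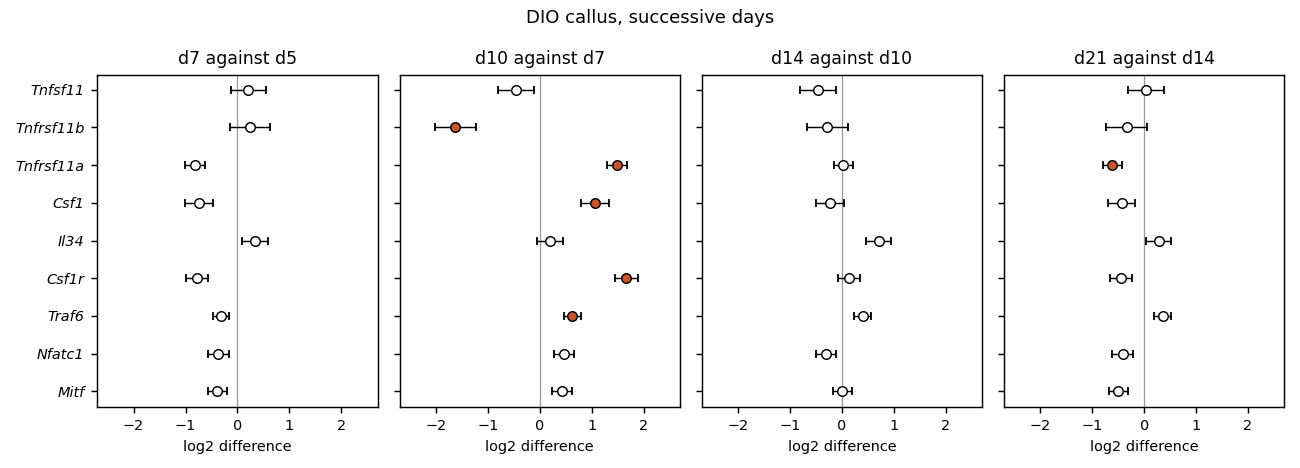
Log2 difference of successive days in DIO callus (horizontal axis, 0 marked by the grey line) for the 9 genes, from an edgeR fit of the 18 DIO libraries. Bars are the SE and filled points have an adjusted p under 0.05, which holds for 5 genes on d10 against d7 and for Tnfrsf11a on d21 against d14.

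The signalling genes around these 9 were read from lists, beside 2.32% of all genes called between the diets on d7. On d7, none of 27 genes of RANK signal transduction was called between the diets (adjusted p of Traf5, a further adaptor of RANK, 0.0833; median log2 difference -0.10). Of 15 genes of ITAM co-stimulation, the second signal that osteoclast precursors need beside RANK, 3 were called lower in DIO callus and 0 higher, with a median log2 difference of -0.71 against -0.0013 over all genes. They were Oscar, the osteoclast-associated receptor (-1.63 ± 0.22 (SE), adjusted p = 0.0118), the adaptor Blnk (-1.29 ± 0.21 (SE), adjusted p = 0.0203) and the kinase Btk (-1.05 ± 0.21 (SE), adjusted p = 0.0404). Of 15 genes of CSF1 receptor signalling, 1 was called, Ptprz1, a receptor phosphatase that IL-34 can bind (-1.41 ± 0.28 (SE), adjusted p = 0.0335). Of the 22 tested genes known to induce RANKL, OPG or CSF1, 2 were higher in DIO callus, Ptgs2, the inducible prostaglandin synthase (2.02 ± 0.39 (SE), adjusted p = 0.0327), and Il11 (2.49 ± 0.51 (SE), adjusted p = 0.041), and 1 was lower, Lifr (-0.82 ± 0.18 (SE), adjusted p = 0.0451). None of 16 repressors and lineage factors was called. Oscar is also among the osteoclast markers above.

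On d5, 1.08% of all genes were called between the diets. Fcer1g, an ITAM adaptor (-0.89 ± 0.13 (SE), adjusted p = 0.0378), and the kinase Syk (-0.91 ± 0.14 (SE), adjusted p = 0.0432) were lower in DIO callus, 2 of the 15 co-stimulation genes. Irf8, a repressor of osteoclast formation that macrophages express (-1.13 ± 0.18 (SE), adjusted p = 0.0432), and the kinase subunit Pik3cd (-1.17 ± 0.18 (SE), adjusted p = 0.0432) were lower as well, each the only gene called in its list of 17 repressors and 15 CSF1 receptor signalling genes. Leukocyte markers had lower levels on d5 too: the monocyte and macrophage sum was 4328 to 6048 CPM in lean and 2638 to 3015 CPM in DIO callus, with 1 of 15 called lower, 0 of 15 with a positive difference and a median log2 difference of -0.64, and 2 of the 9 lymphocyte genes that passed the filter were called lower. The part of these cells in the 4 values was not tested. In the same comparison 0 of the 27 RANK signalling genes and 0 of 22 inducers were called. On d3 and d10 edgeR called no gene of the 5 lists, where it also called no gene of the whole table. At an unadjusted p under 0.05 it had 2374 genes on d3 and 1082 on d10, and DESeq2 called 726 and 41.

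From d7 to d10 in DIO callus, where 6.01% of all genes were called higher and 7.01% lower, 6 of the 15 co-stimulation genes rose and 0 fell, with a median log2 difference of 0.45 against -0.02 over all genes. They included Oscar (3.02 ± 0.22 (SE), adjusted p = 4.4e-07), Itgb3, the beta subunit of the osteoclast vitronectin receptor (1.92 ± 0.31 (SE), adjusted p = 5.4e-04), and Btk (0.89 ± 0.18 (SE), adjusted p = 0.00321). Of the 27 RANK signalling genes 3 rose and 0 fell, namely Traf5 (1.32 ± 0.23 (SE), adjusted p = 8.6e-04), Src, the kinase needed for the ruffled border (0.98 ± 0.24 (SE), adjusted p = 0.0115), and Gab2 (0.67 ± 0.18 (SE), adjusted p = 0.0191). Among the inducers 2 rose, Lifr (1.79 ± 0.23 (SE), adjusted p = 7.8e-05) and Vdr, the vitamin D receptor (1.44 ± 0.26 (SE), adjusted p = 0.00128), and 4 fell, Ptgs2 most clearly (-3.02 ± 0.46 (SE), adjusted p = 2.9e-04). Of the 17 repressors and lineage factors 2 rose, Prdm1 (1.41 ± 0.31 (SE), adjusted p = 0.00499) and Jdp2 (0.86 ± 0.24 (SE), adjusted p = 0.0227), and 2 fell, with Socs3, a brake on cytokine signalling, at -0.84 ± 0.22 (SE), adjusted p = 0.0184.

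From d10 to d21 in DIO callus, 21.7% of all genes were called higher and 21.8% lower, 43.4% in all, and the shares called in the lists are to be read against that. Of the 15 co-stimulation genes 7 rose and 1 fell, with Syk at 1.55 ± 0.22 (SE), adjusted p = 5.0e-05, Blnk at 1.59 ± 0.23 (SE), adjusted p = 6.3e-05 and Lyn at 0.98 ± 0.15 (SE), adjusted p = 8.1e-05. Of the CSF1 receptor signalling genes 7 of 15 rose and 3 fell, with Pik3r1 at 0.98 ± 0.15 (SE), adjusted p = 9.8e-05 and Inpp5d, the lipid phosphatase SHIP1, at 1.27 ± 0.23 (SE), adjusted p = 3.1e-04. Syk, Blnk, Lyn, Btk and Inpp5d act in B cells too, and the lymphocyte markers given above rose over the same days, with 8 of 12 called higher and 0 lower. Of the 27 RANK signalling genes 7 rose and 4 fell, and of the 17 repressors and lineage factors 3 rose and 4 fell. Of the 22 tested inducers 3 rose and 8 fell, among them Wnt16, which raises OPG in bone (-3.08 ± 0.42 (SE), adjusted p = 3.8e-05), and Wnt5a, which raises RANK in precursors (-1.55 ± 0.24 (SE), adjusted p = 1.1e-04).

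The genes whose log2 CPM tracked each of the 9 most closely were taken from 14808 genes with a mean of at least 1 CPM, over the 30 libraries, and are given with Pearson r and no test, since libraries share day, diet and cell makeup. For Tnfsf11 they were Tmed10 (0.85), Gars (0.82) and Tbrg1 (0.80). For Tnfrsf11b they were Tgfb2 (0.87), Ptgs2 (0.86) and Atp10a (0.86), so Ptgs2 of the list of inducers was the second closest of all genes. Among the 3 closest to Tnfrsf11a were Itga9 (0.86) and Nrp2 (0.83), and among those closest to Csf1r Itga9 (0.92) and Cd68 (0.90), with the integrin gene Itga9 in both. Csf1 was closest to Plxnd1 (0.84), Pdgfb (0.83) and Arhgef11 (0.82). Il34 was closest to Blk (0.91), Sigirr (0.90) and H2-DMb2 (0.90), and Traf6 to Btla (0.92), Snx30 (0.89) and Dennd1b (0.89), of which Blk and Btla are genes of B and T cells. Nfatc1 was closest to Ankrd13b (0.93), Myo1e (0.92) and Mprip (0.88). Mitf had no gene closer than Eogt (0.73), followed by Stra6l (0.72) and Dusp3 (0.70).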

How the data were processed

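RNA of 30 fracture calli was sequenced after poly(A) selection with a stranded kit. The authors trimmed reads with BBDuk, aligned them with HISAT2 2.1.0 to GRCm38 and counted them per gene with HTSeq. The HTSeq version, strand setting and annotation are not given in the sources used here. The deposited values are raw counts per Ensembl gene, and no column was left without a sample. Symbols, positions and exon lengths came from GENCODE M21 (42462 of 43629 identifiers matched). Library totals ran from 13247122 to 26365620 reads.

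Counts were tested with edgeR 4.0.16 (quasi-likelihood test, filterByExpr, trimmed mean of M values, Benjamini-Hochberg adjustment over all genes tested, threshold 0.05). Diet was tested within each day on 6 libraries, lean days on 12, DIO days on 18, and the change of the diet difference on the 24 libraries of d3 to d10. The ratio of Tnfsf11 to Tnfrsf11b, on a log2 scale with a prior count of 0.5, was tested with two-sided exact permutation tests over mice. Alternatives were DESeq2 1.42.0, relative log expression scaling, no filter, a replicate block, all libraries in 1 fit, other prior counts and each library left out. The edgeR and DESeq2 steps were tested on simulated data. The 9 genes, the gene lists and the tests were chosen with earlier results of these data known, and the comparisons of successive days were added after the values were seen. Genes named beside the 9 were the up to 3 with the smallest adjusted p per list and comparison, the 3 most correlated with each of the 9 (of which 1 gene is not reported here), and marker genes; other list genes and the neighbours Hmgxb3, Gm15894 and Gm15895 were named after their values were seen.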

Additional observations from a re-analysis of the deposited data

Results flagged for a closer look

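Among the 9 genes, 1 was picked out because its difference between DIO and lean callus was itself different on different days: Csf1r, by 1.18 ± 0.26 (log2, SE) from d7 to d10 (edgeR adjusted p = 0.0143) and over d3, d5, d7 and d10 together (adjusted p = 0.0435). Its diet difference was -1.02 on d7 and 0.15 on d10.

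In the surrounding lists, 7 named genes had a diet difference that changed from d7 to d10 by the same test, which called 5.07% of all genes. They come from the up to 3 genes with the smallest adjusted p in each list, so 7 is not a count over the whole lists. It became higher for Oscar (1.94 ± 0.32 (SE), adjusted p = 0.00317), Btk (1.38 ± 0.36 (SE), adjusted p = 0.0322), Blnk (1.55 ± 0.44 (SE), adjusted p = 0.0444) and Traf5 (1.25 ± 0.32 (SE), adjusted p = 0.0287). It became lower for Ptgs2 (-3.33 ± 0.72 (SE), adjusted p = 0.0116), Il11 (-4.34 ± 1.08 (SE), adjusted p = 0.0245) and Pth1r, the parathyroid hormone receptor (-2.14 ± 0.58 (SE), adjusted p = 0.0365). Oscar is also an osteoclast marker and Pth1r a chondrocyte marker in the lists used here. With 3 libraries per group, single libraries were not screened for outlying values.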

How the results depend on the processing

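The number of the 9 genes called changed under some alternatives. DESeq2 called 2 on d5 between the diets where edgeR called 0, 4 among lean days (edgeR 2), 3 on lean d10 against d7 (edgeR 1), 2 on DIO d7 against d5 (edgeR 0), 3 for diet by day and 3 for the change from d7 to d10 (edgeR 1 each). Without the filter on low counts 2 were called on lean d10 against d7 and 1 on DIO d7 against d5, and with all 30 libraries in 1 fit 2 on lean d10 against d7 and 0 for diet by day. The replicate block called 1 in place of 2 on d7 between the diets, 2 in place of 1 on lean d10 against d7 and 0 in place of 1 for diet by day. The labels do not number the mice within a group, and the replicate numbers used here follow the order of the samples. In no comparison did every same-numbered pair of libraries correlate over 0.1. The mean correlation of their deviations was 0.065, -0.205, -0.076 and 0.016 for d3, d5, d7 and d10 between the diets. It was -0.018 among DIO days and 0.127 among lean days (-0.152 to 0.364, against -0.063 for other pairs). Among lean days the block moved the count of all genes called on d10 against d7 from 450 to 1479. Between the diets 2, 0, 0 and 2 of 6 libraries correlated best with their own number, so the block was an alternative.

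With 1 library left out, the number called ran 0 to 2 on d5 and 0 to 3 on d7 between the diets, 1 to 3 among lean days, 1 to 4 on lean d10 against d3, 0 to 3 on lean d10 against d7, 0 to 2 on DIO d10 against d3, 3 to 5 on DIO d10 against d7, 3 to 6 on DIO d21 against d10, 0 to 2 on DIO d21 against d14, 0 to 2 for diet by day and 0 to 3 for the change from d7 to d10. The log2 ratio of Tnfsf11 to Tnfrsf11b changed sign for DIO against lean on d10 (-0.287 to 0.456) and for DIO d21 against d10 (-0.202 to 0.551), both differences with an exact p of 0.9 or more, and no prior count moved a ratio across the threshold. No log2 difference of the 9 genes with an unadjusted p under 0.15 changed sign under any alternative. The cause of these changes was not tested.

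Over all genes, the count called moved by more than 1.5 times on d3 between the diets (0 to 515 without the filter, 325 with the block and 726 with DESeq2), on d5 (170 to 565, 0 and 1149, and 63 in 1 fit), on d7 (366 to 724 without the filter, 944 with DESeq2 and 675 in 1 fit) and on d10 (0 to 29, 41 and 3). With DESeq2 it also moved among lean days (3132 to 4847), for diet by day (282 to 1151, and 503 without the filter) and for the change from d7 to d10 (865 to 1496). Of the successive days it moved on lean d5 against d3 (74, range of alternatives 169 to 583), lean d7 against d5 (0 to 38), lean d10 against d7 (450 to 1802), DIO d5 against d3 (285 to 575), DIO d7 against d5 (3 to 343) and DIO d14 against d10 (129, from 2 in 1 fit to 552 with DESeq2).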

Other observations

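In lean callus from d3 to d10, where 29.3% of all genes were called (15.2% higher and 14.1% lower), genes of each list around the 9 were called in both directions. Of the 15 co-stimulation genes 4 rose and 7 fell, with Oscar at 4.05 ± 0.27 (SE), adjusted p = 7.6e-06 (log2), Plcg1 at 0.85 ± 0.14 (SE), adjusted p = 0.00131 and Lyn, a kinase of myeloid and B cells, at -1.05 ± 0.18 (SE), adjusted p = 0.00181. Of the 15 genes of CSF1 receptor signalling 3 rose and 6 fell, with Gab1 at 1.33 ± 0.21 (SE), adjusted p = 0.00136 and Inpp5d at -1.34 ± 0.13 (SE), adjusted p = 9.0e-05. Of the 27 RANK signalling genes 4 rose and 4 fell, a share close to that of all genes, with Src at 1.06 ± 0.14 (SE), adjusted p = 4.3e-04 and Jun at -0.97 ± 0.19 (SE), adjusted p = 0.00341. The median log2 difference was -0.64, -0.23 and -0.05 for these 3 lists, against 0.02 over all genes.

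Of the 22 tested inducers 4 rose and 8 fell in lean callus over the same days, with Vdr at 2.09 ± 0.29 (SE), adjusted p = 6.4e-04, Il6ra at -2.29 ± 0.36 (SE), adjusted p = 0.00128 and Osm, the cytokine oncostatin M that myeloid cells make, at -3.03 ± 0.50 (SE), adjusted p = 0.00156. Of 17 repressors and lineage factors 3 rose and 5 fell, with Jdp2 at 1.02 ± 0.15 (SE), adjusted p = 8.8e-04 and Irf8 at -1.39 ± 0.30 (SE), adjusted p = 0.00562. In DIO callus from d3 to d10, 11.1% of all genes were called higher and 10.8% lower. There 4 of the 15 co-stimulation genes rose and 0 fell, and of the 17 repressors and lineage factors 0 rose and 4 fell. For RANK signalling 3 of 27 rose and 5 fell, for CSF1 receptor signalling 3 of 15 and 2, and for the 22 tested inducers 3 and 9. Oscar was at 4.59 ± 0.24 (SE), adjusted p = 5.8e-09, and Itgb3 at 2.25 ± 0.32 (SE), adjusted p = 1.3e-04. Vdr was at 1.80 ± 0.26 (SE), adjusted p = 1.7e-04, and Il11 at -3.97 ± 0.67 (SE), adjusted p = 6.0e-04. Myeloid markers moved beside the lean genes: of 15 monocyte and macrophage genes 10 fell and 1 rose, with a summed level of 5208 to 6262 CPM in lean d3 and 1926 to 2980.3 CPM in lean d10. Of 10 neutrophil genes 5 fell and 0 rose: the summed level of the 10 was 12217 to 26735 CPM in lean d3 and 403 to 6286 CPM in lean d10. Their part in these values was not tested.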
